A study of Mus musculus with 47 samples.

Results

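The Hox genes of the Hoxc and Hoxd clusters were followed through the neuronal differentiation of P19, a line of mouse embryonal carcinoma cells. The 10 genes were Hoxc4, Hoxc5, Hoxc6, Hoxc8, Hoxc9, Hoxd1, Hoxd3, Hoxd4, Hoxd8 and Hoxd9, and they were found as the 3′ UTR rows whose RefSeq mRNA name maps to one of these symbols. They make up 12 of 28190 mRNA transcripts in the files and 10 of 18854 genes with a symbol. Hoxd8 has 3 transcripts on 1 shared 3′ UTR, so the 10 genes have 10 distinct 3′ UTRs.

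SLAM-seq counts 3′ end reads and, in the same reads, the T positions read as C where RNA was made in the presence of 4-thiouridine (4sU). The dose of 4sU was 20 µM in undifferentiated cells (D0) and 500 µM on day 6 (D6) of culture in NDiff 227 medium with 500 nM retinoic acid, so dose and state cannot be told apart in any labeled library. In the anabolic assay 4sU was added and cells were taken after 0, 3, 6 and 9 h, where 0 h had no 4sU. In the catabolic assay cells were labeled for 15 h and then taken 0, 3, 6 and 9 h after 4sU was replaced. A shorter labeling time is given in one place of the methods, and the point at the end of labeling is called 15 h throughout. The sample labels give 1 and 3 h for the time points that the study description gives as 3 and 6 h. There were 3 libraries of each kind, but 2 at catabolic 6 h of D6, which makes 24 at D0 and 23 at D6. They are described as biological replicates, all of 1 cell line, and p-values measure the spread between these libraries.

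Hox genes encode homeodomain transcription factors that give cells their place along the head-to-tail axis. The order of the genes along each cluster follows the order of the body levels at which they are used, and genes at the 3′ end of a cluster respond to retinoic acid before genes at the 5′ end. In the developing hindbrain and spinal cord, Hox proteins bind DNA with Meis proteins among their partners and set the identities of motor neurons and interneurons at each level. Before activation the clusters are held silent by Polycomb proteins.

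All 10 3′ UTRs lie on the + strand (mm10). The Hoxc UTRs span chr15:102984140-103036852 in the order Hoxc9, Hoxc8, Hoxc6, Hoxc5 and Hoxc4, and the Hoxd UTRs span chr2:74699422-74765142 in the order Hoxd9, Hoxd8, Hoxd4, Hoxd3 and Hoxd1, so that Hoxc4 and Hoxd1 stand at the 3′ end of their cluster. Each lies in a 3′ UTR exon of the GENCODE annotation, that of Hoxc8 only in part, no other RefSeq row overlaps any of them, and no exon lies on the opposite strand. Exons of Gm28230 overlap the UTRs of Hoxd3 and Hoxd4 on the same strand, and reads of the 2 annotations cannot be told apart. Lengths run from 305 bases in Hoxc9 to 1987 in Hoxc5. T makes up 14.4% of the Hoxc9 UTR, a share that 0.624% of all UTRs fall below, against a median of 28.96% over all UTRs, which leaves Hoxc9 with 44 T positions at which label can be read.

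Because the assay reads the 3′ end next to the poly(A) tail, the cleavage and polyadenylation signal AATAAA was searched on the transcribed strand of the 9 UTRs that could be read (that of Hoxc8 was not). All 9 hold at least 1 match, as do 74.9% of 15489 UTRs read the same way. The last match is given for the 5 genes with the most reads at D6, 5′ to 3′ with the match in capitals, because cleavage follows this signal closely.
Hoxc4, chr15:103036813-103036833: ccgtgatcaatAATAAAccag
Hoxc5, chr15:103016255-103016275: ttgtcatatcaAATAAAgcca
Hoxc6, chr15:103011844-103011864: ctcgaatatttAATAAAactg
Hoxd3, chr2:74748231-74748251: aataataaaaaAATAAActtt
Hoxd4, chr2:74729144-74729160: atgcccaaagaAATAAA
The match lies 23 bases before the annotated end in Hoxc4, 21 in Hoxc6 and 24 in Hoxd3. In Hoxd4 it ends at the annotated end itself, with 0 bases after it. The single match of Hoxc5 lies 1158 bases before the annotated end, and no AATAAA is nearer to that end.

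The Hoxd cluster also carries Mir10b, whose mature product lies at chr2:74726074-74726096 before the Hoxd4 UTR, and the Hoxc cluster carries Mir196a-2 at chr15:102973365-102973386. The seeds (bases 2 to 8, in capitals, from RefSeq on GRCm38.p6) and the single seed match among the 9 UTRs read are shown because Hox mRNAs are known targets of both miRNA families.
miR-10b-5p: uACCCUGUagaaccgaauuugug
miR-196a-5p: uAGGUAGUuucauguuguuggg
Hoxd1 3′ UTR, chr2:74764934-74764955: ggaacaaatccACAGGGTaggt
The match to the miR-10 seed, ACAGGGT, was found in Hoxd1 only among these 9, and 9.81% of all UTRs hold it. The match to the miR-196 seed, ACTACCT, was found in none of them and is held by 4.78% of all UTRs. The UTR of Hoxc8 was not searched for either. The libraries do not measure the miRNAs.

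Reads on 3′ UTRs ranged from 1489528 to 11677046 per library. Without 4sU, the pluripotency genes Utf1, Tdgf1, Pou5f1 and Lin28a fell among 6 tested of 11, and 11 of 12 neuron markers rose. At D6 the summed level was 6027 to 8487 CPM (reads scaled to the library's total) for the neuron list against 671 to 939.7 at D0, and 260.3 to 630.4 for the pluripotency list against 1231 to 2267. The 6 neural progenitor markers summed to 343 to 933 CPM at D0 and 929 to 1938 at D6, where 2 rose. The 10 mesoderm and mesenchyme markers summed to 74.3 to 127.5 CPM at D0 and 0.233 to 22.9 at D6, and 2 of the 4 tested fell. The 7 glia markers summed to 3.14 to 46.4 CPM at D0 and 0 to 119 at D6 and the 6 endoderm markers to 0 to 5.80 and 0 to 20.5, with none of the 2 glia and 1 endoderm genes tested without 4sU called. Over all time points 1 of 3 glia genes tested rose, and of the 6 neural progenitor markers 5 rose and 1 fell. At the same points all 12 neuron markers rose, and 7 of 9 pluripotency genes tested fell. Of the mesoderm and mesenchyme genes 5 of 7 tested fell, and none of the 2 endoderm genes tested was called. Of all transcripts, 17.4% were called higher over all time points and 27.7% lower. Without 4sU these shares were 7.74% and 5.4%. The part of other cell types in the results was not tested. In 3 D6 libraries conversions or depth stood apart. In catabolic 6 h replicate 14, 21.0% of 858 well-covered transcripts had under 0.1% of their T positions converted, against 1.86% in replicate 15. In anabolic 6 h replicate 45 this share was 17.9%, against 0 in the other 2 libraries of the point. Anabolic 9 h replicate 53 had 1504166 reads on UTRs, against 4466071 and 3715703.

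The first comparison asked how the reads of the genes differed between D6 and D0 in the 6 libraries without 4sU. Hoxc4 rose, as did Hoxd3, Hoxd4, Hoxc5, Hoxc6 and Hoxc8, from at most 9 reads per library at D0, or 55 for Hoxd4, to at least 144 at D6. Hoxc9 and Hoxd8 also had more reads in every D6 library but did not pass the test, and Hoxd1 and Hoxd9 had too few reads to be tested. In bulk RNA, fewer cells that express a gene and less RNA per cell cannot be told apart.

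Hoxc4, which with Hoxd4 belongs to the paralogue group used at the hindbrain to spinal cord boundary, had 5, 6 and 9 reads in the 3 D0 libraries and 4513, 4367 and 5744 reads in the 3 D6 libraries. Its level was 0.738 ± 0.227 CPM at D0 and 694 ± 134 CPM at D6 (SD, n = 3), where CPM is scaled to the reads on the 3′ UTRs of all mRNA transcripts. The ratio of summed reads per depth was 912-fold with a 95% exact interval of 590 to 1493, which covers counting error only, since the reads carry no molecular identifiers. The 2 states did not overlap, and the log2 change was 9.91 (SE 0.42, adjusted p = 4.3e-07 by edgeR's quasi-likelihood test).

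Hoxd4, whose neural enhancers contain a retinoic acid response element, had 28, 3 and 55 reads at D0 and 1388, 931 and 2656 at D6. The D0 libraries differed among themselves more for Hoxd4 than for Hoxc4, and all lay below the lowest D6 library. The levels were 2.96 ± 2.68 and 217 ± 43.2 CPM (SD, n = 3), the ratio was 72.1-fold (exact interval 58.3 to 90.3), and the log2 change was 6.26 (SE 0.70, edgeR adjusted p = 0.00023). Without D0 replicate 57, which held 55 of the 86 D0 reads, the log2 change was 7.09. Among the 8 time points tested singly, 6.26 was the lowest log2 change of Hoxd4, and the highest was 10.2. Hoxd3, which patterns the first vertebrae and the caudal hindbrain, had 0, 1 and 1 reads at D0 and 242, 281 and 247 at D6. With 2 reads in all at D0 its ratio of 479.9 has an exact interval from 132 to 3970, and its log2 change of 8.78 (SE 1.20, edgeR adjusted p = 0.00086) depends on the prior count of the fit.

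Of the genes of the cluster's middle, Hoxc5 had 3, 0 and 0 reads at D0 against 653, 421 and 1074 at D6. Hoxc6, a gene of the brachial spinal cord and its limb-innervating motor neurons, had 1, 4 and 0 against 734, 435 and 950. Hoxc8, used at brachial and thoracic levels, had 1, 1 and 0 against 213, 144 and 387. None of the 3 overlapped between the states. Their ratios were 892-fold (exact interval 305 to 4331), 528-fold (226 to 1629) and 464-fold (128 to 3836), all with at most 5 reads at D0, and their edgeR adjusted p-values were 6.4e-05, 0.00012 and 0.0012.

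The call was not made for Hoxc9 and Hoxd8. Hoxc9, a determinant of thoracic motor neuron identity, had 32, 0 and 1 reads at D0 and 163, 73 and 129 at D6, with a log2 change of 4.05 (SE 1.75, edgeR adjusted p = 0.17). Hoxd8 had 11, 0 and 0 reads at D0 and 120, 162 and 92 at D6, with a log2 change of 5.77 (SE 1.82, adjusted p = 0.063). For both genes 1 D0 library, replicate 55, held 32 of 33 and 11 of 11 of the D0 reads. Without that library the log2 changes were 7.94 (edgeR adjusted p = 0.034) for Hoxc9 and 10.27 (adjusted p = 0.020) for Hoxd8, and DESeq2 called both with all 6 libraries.

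Hoxd1, the gene nearest the 3′ end of its cluster and one of the paralogue group that answers retinoic acid first, had 0, 0 and 12 reads at D0 and 0 in all 3 D6 libraries. Hoxd9, a gene of the lumbar spinal cord, had 0 in all 3 D0 libraries and 0, 14 and 0 at D6. Neither passed the filter on low counts. In all, 6 of the 10 genes were called higher and 0 lower, 8 having been tested, where 7.74% of 16091 tested transcripts were called higher and 5.4% lower. The 8 genes passed the filter through their D6 reads, so their count is a description. Every one of these D6 libraries lay above every one of the D0 libraries in 8 of the 10 genes, as in 15.5% of 19608 transcripts.

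**Figure D1:**
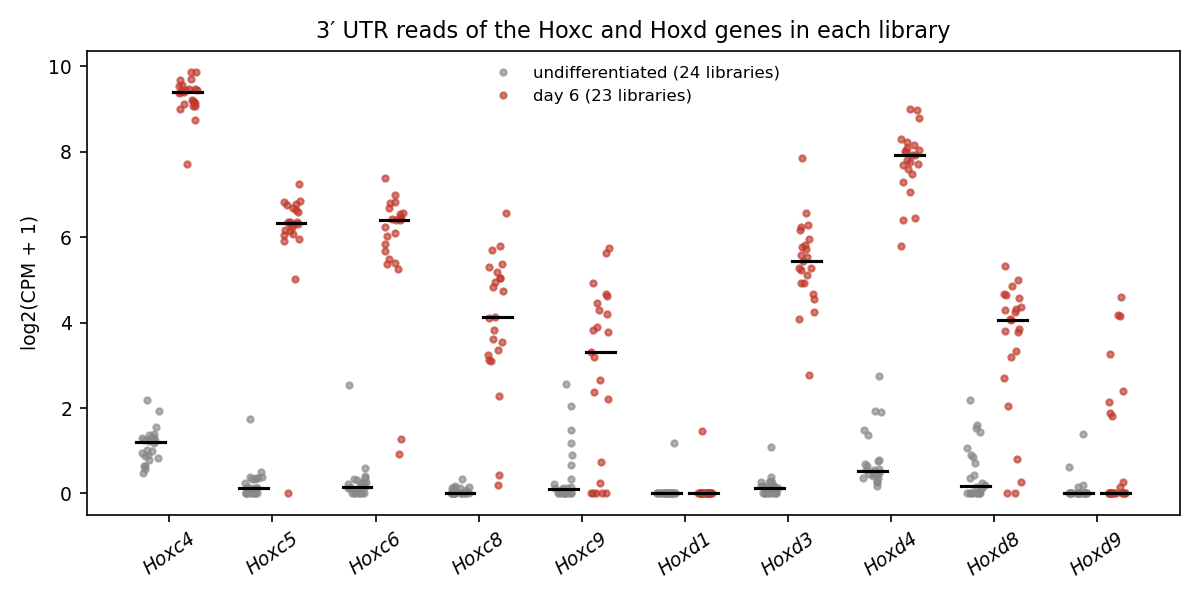
Level of each gene in each library, as log2(CPM + 1) on the vertical axis, for 24 undifferentiated (grey) and 23 day 6 (red) libraries, with black bars at the medians. Hoxc4, Hoxd3 and Hoxd4 were higher in all 23 day 6 libraries than in any undifferentiated library, and Hoxd1 had reads in 1 day 6 library.

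Across all 47 libraries the same order of size was seen. Summed over the 10 genes, D0 libraries held 1.39 to 10.3 CPM with a median of 4.10, and D6 libraries 386 to 1637 with a median of 1137. Hoxc4 had 4 to 59 reads per D0 library (median 10) and 466 to 7969 per D6 library (median 3423). Every D6 library lay above every D0 library for Hoxc4, Hoxd3 and Hoxd4, as in 1.55% of 22842 transcripts.

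Hoxd4 ranged from 1 to 55 reads at D0 (median 5) and from 122 to 2919 at D6 (median 1304). Hoxd3 ranged from 0 to 8 (median 1) and from 13 to 640 (median 242). The lowest D6 values of all 3 genes belong to anabolic 9 h replicate 53, which had 466, 122 and 13 reads of Hoxc4, Hoxd4 and Hoxd3. Scaled to depth it was still the lowest D6 library for each, with 208, 54.5 and 5.80 CPM, and the 10 genes summed to 386 CPM in it against 930 or more in every other D6 library.

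Hoxc5 had 0 to 17 reads at D0 (median 1) and 0 to 1074 at D6 (median 408), Hoxc6 0 to 54 (median 1) and 2 to 1086 (median 435). Hoxc8 had 0 to 3 reads at D0 (median 0) and 1 to 466 at D6 (median 83). These genes overlapped between the states through few libraries. Hoxc5 had 0 reads in the D6 catabolic 6 h replicate 14, where Hoxc6 had 3, and Hoxc6 had 2 in anabolic 9 h replicate 53. Of 23 D6 libraries, 22 lay above every D0 library for Hoxc5, 22 for Hoxc8 and 21 for Hoxc6.

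Hoxc9 ranged from 0 to 255 reads at D6 (median 63) with 5 libraries at 0, and from 0 to 49 at D0 (median 1). Hoxd8 ranged from 0 to 218 at D6 (median 92) with 2 libraries at 0, and from 0 to 31 at D0 (median 1). Both overlapped between the states, with 14 and 18 of 23 D6 libraries above every D0 library. Hoxd9 was read in 10 of 23 D6 libraries and 4 of 24 D0 libraries, up to 115 and 19 reads, and its median was 0 in both. Hoxd1 had 9 reads in 1 D6 library and 12 reads in 1 D0 library, and 0 in all others.

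Tested over the 8 time points together in edgeR, 8 of the 10 genes were higher at D6, and 17.4% of 20699 tested transcripts were. Hoxc5, Hoxc6, Hoxc8 and Hoxd3 passed the filter on low counts through their D6 reads, so this count is a description. The log2 changes were 9.17 (SE 0.16) for Hoxc4, 9.06 (SE 0.49) for Hoxd3, 9.01 (SE 0.68) for Hoxc8, 8.97 (SE 0.49) for Hoxc5, 8.93 (SE 0.51) for Hoxc6 and 8.48 (SE 0.30) for Hoxd4. Those of Hoxd8 at 5.27 (SE 0.71, edgeR adjusted p = 6.5e-09) and Hoxc9 at 4.60 (SE 0.92, adjusted p = 2.8e-05) were smaller, and both depended on single libraries. Without catabolic 6 h replicate 15, Hoxd8 and Hoxc5 lost the call, and without catabolic 6 h replicate 14 or anabolic 9 h replicate 54 Hoxc9 did, in each case with 1 group left at 0 reads of the gene. The changes of Hoxd1 and Hoxd9 could not be estimated, since whole groups had 0 reads, and DESeq2 called Hoxd9 in addition. With the 3 libraries that stood apart left out together, an alternative chosen after seeing the data, Hoxc9 lost the call, again with 1 group at 0 reads, and the other 7 kept it, with log2 changes from 5.35 for Hoxd8 to 9.14 for Hoxc4.

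At the single time points, each tested on its own libraries, Hoxc4, Hoxd3 and Hoxd4 were called at all 8. Hoxc4 changed least at anabolic 9 h, by 7.41 (SE 0.60), and most at catabolic 6 h, by 10.32 (SE 0.41). Hoxc6 and Hoxc8 were called at each of the 7 and 6 points at which they were tested. Hoxc6 was not tested at anabolic 9 h, where D6 replicate 53 had 2 reads. Hoxc8 was not tested at catabolic 3 and 6 h, where D6 replicates 11 and 15 had 1 read each. Hoxc6, Hoxc8 and Hoxd3 passed the filter on low counts through their D6 reads, so their counts are a description. Hoxc5 was called at 7 of 8 points. The exception was catabolic 6 h, where 1 of its 2 D6 libraries had 0 reads (log2 change 6.21, SE 3.04, edgeR adjusted p = 0.20). Hoxc9 was called at 1 of 5 tested points and Hoxd8 at 2 of 6. Hoxd9 was tested at 1 point, with a log2 change of 4.00 (SE 2.35, adjusted p = 0.33). Of all transcripts tested, 7.74, 8.31, 7.92 and 6.17% were called higher at anabolic 0, 3, 6 and 9 h, and 7.33, 9.21, 4.58 and 12.2% at catabolic 0, 3, 6 and 9 h.

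**Figure D2:**
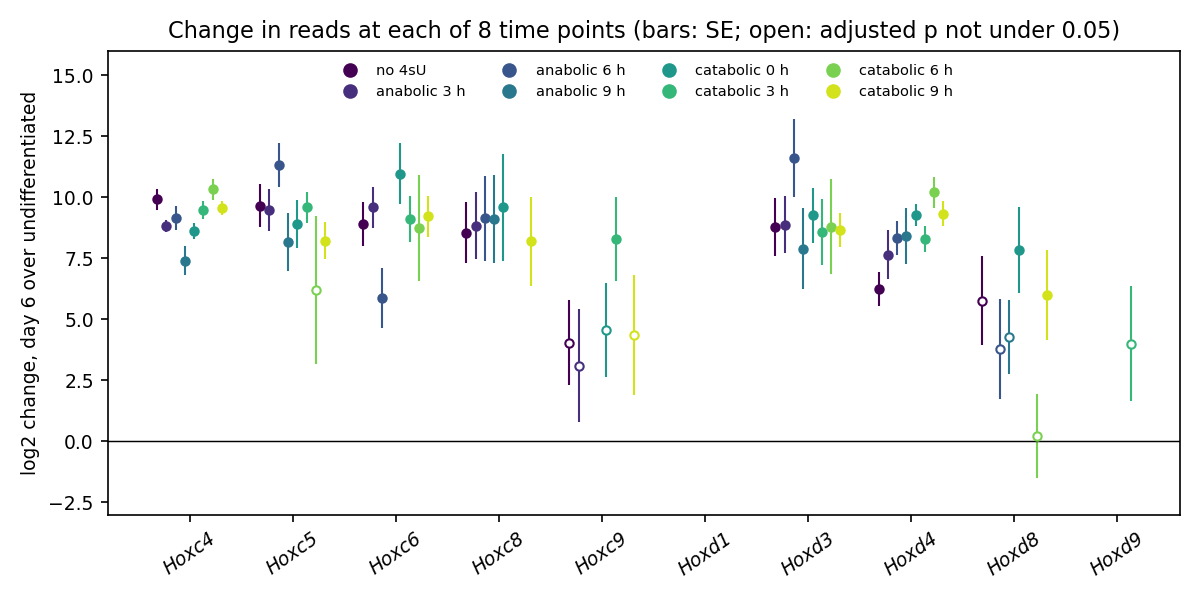
Log2 change in reads, day 6 over undifferentiated, for each gene at each of 8 time points, with bars of 1 SE; filled points had an edgeR adjusted p under 0.05, and a missing point was not tested. Hoxc4 lay between 7.41 and 10.32 at all points, while Hoxd8 ran from 0.22 to 7.83.

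Hoxc4 and Hoxd4 made up most of the reads of the 10 genes at D6. The share of Hoxc4 was 43.4% to 69.7% per library (median 55.7%) and that of Hoxd4 7.65% to 34.4% (median 21.1%). Hoxc5 followed with a median of 7.01%, Hoxc6 with 6.37% and Hoxd3 with 3.74%, and the other 5 genes each had a median under 2%. The median levels at D6 were 674 CPM for Hoxc4, 239.7 for Hoxd4, 83.2 for Hoxc6, 79.8 for Hoxc5, 42.5 for Hoxd3, 16.4 for Hoxc8, 15.7 for Hoxd8, 8.85 for Hoxc9 and 0 for Hoxd1 and Hoxd9.

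Some neighbours in that order were told apart and others were not. Hoxc4 was above Hoxd4 in 23 of 23 libraries, Hoxd4 above Hoxc6 in 21, Hoxc5 above Hoxd3 in 20 and Hoxd3 above Hoxc8 in 19. Hoxc6 was above Hoxc5 in 9, Hoxc8 above Hoxd8 in 13 and Hoxd8 above Hoxc9 in 13, which leaves the order within these pairs unsettled. The assay gives 1 read per 3′ end, so CPM was not scaled to length. Per kb of UTR the D6 medians were 783 CPM for Hoxc4, 418 for Hoxd4, 99.1 for Hoxc6, 40.2 for Hoxc5, 35.7 for Hoxd3, 29 for Hoxc9, 14.03 for Hoxd8 and 11.7 for Hoxc8, which moves Hoxc9 above Hoxd8 and Hoxc8 and keeps the first 5 in place.

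Along the Hoxc cluster the D6 median fell from its 3′ end to its 5′ end, apart from Hoxc5 and Hoxc6, which stood close together. Along the Hoxd cluster it did not follow the order, since Hoxd1 at the 3′ end had a median of 0, Hoxd4 had the highest, and Hoxd8 and Hoxd9 were lower again.

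**Figure D3:**
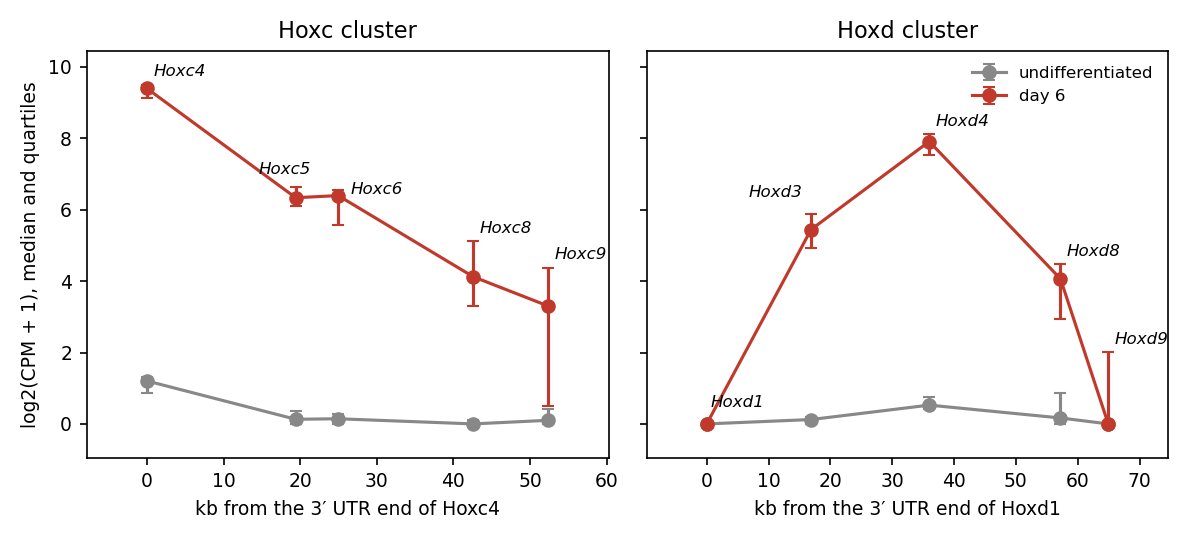
Median level of each gene at each state against its distance from the 3′ UTR end of the gene at the 3′ end of the cluster (kb), as log2(CPM + 1) with bars from the lower to the upper quartile of the libraries. At day 6 the Hoxc medians ran from 674 CPM at Hoxc4 to 8.85 CPM at Hoxc9, and the Hoxd medians peaked at Hoxd4 with 239.7 CPM.

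Levels at D6 were also compared across the time points. Hoxc4 stood between 436 ± 233 CPM at anabolic 9 h and 854 ± 132 at catabolic 9 h (SD, n = 3). Hoxd4 stood between 173 ± 78.8 at catabolic 3 h and 307 ± 169 at catabolic 9 h among the points with 3 libraries. The 15 h of 500 µM 4sU were set against none with edgeR, and 0 of the 10 genes (8 tested) were called, where 0.0512% of 15615 transcripts were, 0.0064% higher and 0.0448% lower. At an unadjusted p under 0.05 there was 1, Hoxc6, beside 910 of the transcripts.

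Hoxc6 had 734, 435 and 950 reads without 4sU and 293, 195 and 257 after 15 h. Its levels were 95.8 ± 13.4 and 44.6 ± 10.2 CPM (SD, n = 3). Its log2 change was -1.17 (SE 0.35, unadjusted p = 0.0037, edgeR adjusted p = 0.43), while DESeq2 called it with -1.15 and an adjusted p of 0.017. Hoxc4 changed by -0.32 (SE 0.19), Hoxc5 by -0.54 (SE 0.32), Hoxd3 by 0.34 (SE 0.50), Hoxd4 by 0.08 (SE 0.22), Hoxc9 by -0.08 (SE 0.87) and Hoxd8 by -0.12 (SE 0.80), and none of these had an unadjusted p under 0.05. Hoxc8 changed by -0.9987 (SE 0.72), and by -2.06 without replicate 9 of the 15 h libraries, with an unadjusted p of 0.18 in edgeR over all 6 libraries. The libraries compared here belong to different assays, which cannot be told apart from the label.

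Among the reads of all Hox genes, with overlapping UTRs counted once, the Hoxc cluster held a median of 11.7% (5.76% to 15.6%) and the Hoxd cluster 4.32% (1.46% to 8.60%) of the D6 libraries' 11132 to 82072 reads. Hoxb held 69.98% and Hoxa 14.7%. At D0 the 88 to 407 Hox reads per library were split differently, with a median of 11.2% Hoxc (2.46% to 40.2%) and 21.4% Hoxd (3.57% to 64.9%). The Hoxd range overlapped between the states, and the shares at D0 rest on few reads. These shares count every gene of a cluster, not only the listed ones. Over the D0 libraries Hoxd13 had 438 reads and Hoxd11 403, neither of them listed. Hoxd4 with 227 and Hoxd8 with 151 had the most among the listed Hoxd genes.

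Reads at D0 were also found on genes of the 5′ ends of the clusters, which specify lumbar, sacral and limb levels. Hoxd13 had 438 reads over 15 of 24 D0 libraries and 8 reads in 2 of 23 D6 libraries, and Hoxd11 had 403 reads in 13 D0 libraries and 1 at D6. Hoxd10 had 86 reads at D0, Hoxc13 45 and Hoxc10 12, and each had 0 at D6. A sum of 0 over the 23 libraries allows up to 3 reads, for counting error only. Hoxd12 had 1 read at D0, Evx2, which lies beyond Hoxd13, had none in any library, and Hoxc11 and Hoxc12 were not analysed here. None of these genes was tested without 4sU, since all fell under the filter on low counts. Over all time points 3 were tested by edgeR and 1 was called lower, where 27.7% of all transcripts were. The whole list summed to 0 to 20.4 CPM per library at D0 (median 3.14) and 0 to 0.694 at D6.

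Of the 9 genes that flank the clusters, 2 rose without 4sU, where 7.74% of all transcripts did, and the rest were not called. These were Smug1, a uracil DNA glycosylase beside Hoxc, with a log2 change of 4.71 (SE 0.42, edgeR adjusted p = 4.8e-05), and Calcoco1, a coactivator and autophagy receptor, with 2.33 (SE 0.44, adjusted p = 0.0057). Their median change was 0.07, against -0.04 over all transcripts. Over all time points 3 of the 9 flanking genes rose and 1 fell, beside 17.4% of all transcripts called higher and 27.7% called lower. The flanking genes summed to 783 to 1094 CPM at D0 and 999 to 1403 at D6.

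Of 15 Polycomb and trithorax genes, 1 rose without 4sU, Bmi1, by 4.12 (SE 1.18, edgeR adjusted p = 0.044), beside the 7.74% of all transcripts called higher, and the median change of the list was -0.04. Over all time points 4 of them rose and 5 fell, beside 17.4% of all transcripts called higher and 27.7% called lower. Of the 10 retinoid response genes, 8 were tested and 7 rose, among them the retinoic acid binding protein gene Crabp1 by 7.20 (SE 0.55), the retinoic acid degrading enzymes Cyp26a1 by 6.54 (SE 1.07) and Cyp26b1 by 6.42 (SE 0.35), and the reductase gene Dhrs3 by 5.28 (SE 0.73). Over all time points 9 of the retinoid genes were tested, of which 7 rose and 1 fell. The retinoid list summed to 123 to 183 CPM at D0 and 1634 to 3679 at D6.

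The genes whose level over the 47 libraries was most like the sum of the 10 were Cyp26b1, the RNA-binding protein genes Elavl3 and Elavl4, the neuronal migration gene Dcx and the transcription factor gene Sox11, with Pearson's r on log2(CPM + 1) of 0.988, 0.988, 0.987, 0.985 and 0.984 among 9139 genes compared. These values describe libraries that fall into 2 clusters by state. Within the 23 D6 libraries alone r was 0.65 for Cyp26b1, -0.41 for Elavl3, -0.29 for Elavl4, -0.41 for Dcx and 0.48 for Sox11, so the likeness lay between the states and not within D6 for Elavl3, Elavl4 and Dcx.

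Labeling was read as the share of covered T positions that were C. The genes covered by at least 1000 T positions per library, on average over all 47 libraries, were Hoxc4, Hoxc5, Hoxc6, Hoxc8, Hoxd3 and Hoxd4. Hoxd8 fell just short with 997 and was tested for label only where the minimum was lowered to 500, without a call, and Hoxc9, Hoxd1 and Hoxd9 entered no test of label. At D6 without 4sU the 6 were converted at 0.0031% (Hoxc6) to 0.11% (Hoxd4) of covered T positions. Over the 10 genes together the rate was 0.068 ± 0.040% without 4sU, 0.16 ± 0.21% after 3 h, 2.27 ± 0.55% after 6 h and 3.11 ± 0.84% after 9 h (SD, n = 3), against 0.158, 0.218, 1.98 and 3.62% for all mRNA transcripts.

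Hoxc4 carried 4.51, 4.41 and 3.28% converted T positions after 15 h and 4.01, 2.75 and 3.67% after 9 h, on 12292 to 81574 covered T positions. Hoxd4 carried 3.86, 5.72 and 5.34% after 15 h and 3.94, 0.049 and 3.33% after 9 h, the low value being that of replicate 53 with 2061 covered T positions. The 9 h libraries of Hoxc4 overlapped those of 15 h. Those of Hoxd4 did as well, through the highest of the 9 h values.

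Hoxc6 carried 3.23, 3.47 and 4.44% after 15 h and 5.12, 0 and 0.98% after 9 h. Hoxd3 carried 4.11, 4.79 and 4.99% after 15 h and 3.67, 0 and 1.09% after 9 h. Both values of 0 belong to replicate 53, with 53 and 221 covered T positions. The 9 h libraries are of the anabolic assay and the 15 h libraries of the catabolic assay. Assay and labeling time cannot be told apart in this comparison. Pooled over libraries, the rate after 9 h came to 90.3% of that after 15 h for Hoxc4, 109% for Hoxc5, 76.6% for Hoxc6, 75.2% for Hoxd4 and 59.9% for Hoxd3, beside a median of 81.5% over the 6899 transcripts covered at 10000 or more T positions. That of Hoxc8, which is not among the 6899, was also 76.6% but rested on 1 library at each point, replicate 54 with 80 of 89 conversions at 9 h and replicate 9 with 118 of 121 at 15 h. Relative to the pool of all transcripts, edgeR called 0 of the 6 tested genes and 0% of 14426 transcripts, 0 of the genes and 610 of the transcripts had an unadjusted p under 0.05, and limma called 0 of the 4 genes it could test. Single libraries moved these changes. For Hoxd3 the log2 change relative to the pool was -1.20, and -0.77 without replicate 53 and -2.41 without replicate 52. For Hoxd4 it was -0.76, and -0.23 and -1.17 without the same libraries. That of Hoxc5 ran from -0.24 without replicate 54, which held 630 of its 866 conversions at 9 h, to 0.84 without replicate 52. That of Hoxc6 ran from -1.94 without replicate 52 to 0.031 without replicate 54, and that of Hoxc8 from -2.40 without replicate 54 to 3.49 without replicate 9 of the 15 h libraries.

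After 15 h the genes together reached 4.18 ± 0.29% against 4.65 ± 0.35% for all mRNA transcripts (SD, n = 3). At D0 the conversions of these genes did not follow the label. They stood at 2.46 ± 1.22% after 15 h on 689 covered T positions in all 3 libraries, against 345229 at D6, but also at 0.78 ± 0.74% without 4sU, 1.24 ± 0.86% after 3 h of 4sU and 2.36 ± 0.38% after 9 h of chase. All mRNA transcripts at D0 were converted at 1.42, 0.163, 0.152 and 0.397% at the same points. The D0 rates are therefore not read as labeling.

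After 15 h at D0, Hoxc6 and Hoxc8 had 0 covered T positions, Hoxd3 had 24 and Hoxc5 44, while Hoxc4 had 413 and Hoxd4 123. The edgeR comparison of the states called 0% of 14426 transcripts, and none of its differences is read for these genes.

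**Figure D4:**
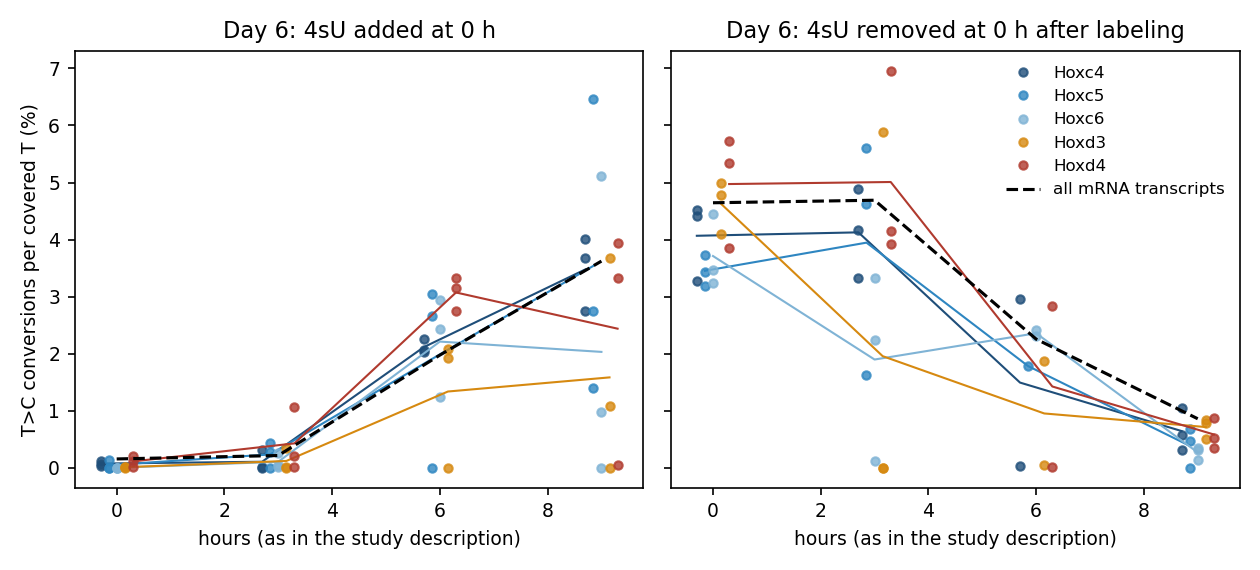
Share of covered T positions read as C (%) against hours for 5 genes at day 6, with a point for each library, thin lines through the means of the libraries, and the mean of all mRNA transcripts as a dashed line. With 4sU added (left) Hoxc4 reached 2.75 to 4.01% at 9 h, and after its removal (right) it fell from 3.28 to 4.51% at 0 h to 0.31 to 1.06% at 9 h.

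Loss of label was measured after 4sU was replaced. Hoxc4 carried 0.57, 1.06 and 0.31% converted T positions at 9 h, all below its 0 h libraries. Hoxd4 carried 0.35, 0.88 and 0.53%, Hoxc6 0.15, 0.35 and 0.32%, Hoxd3 0.79, 0.51 and 0.85%, and Hoxc5 0, 0.69 and 0.48%. In these 5 genes all 9 h libraries lay below those at 0 h, and the share of all transcripts that did so is not given here. All mRNA transcripts together fell from 4.65 ± 0.35% to 0.862 ± 0.069% between the same points (SD, n = 3). For Hoxc8 the deposited counts disagreed. Its count of conversions at T positions was 0 in all 3 libraries at 9 h, on 722 to 2582 covered T positions, and its rate was 0, 0.40 and 3.20% at 0 h. The separate count of reads with a conversion gave 24 of 141 reads in replicate 16 and 1 of 40 in replicate 17 at 9 h, and 20 of 67 reads at 0 h in replicate 7, where the conversions at T positions were also 0.

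The rate left after 9 h was 13.6% of that at 0 h for Hoxc4, 13.1% for Hoxc5, 12.9% for Hoxd4, 15.2% for Hoxd3 and 6.71% for Hoxc6. The median of the same 6899 well-covered transcripts was 13.3%, so that 4 of these 5 genes lay between percentiles 48.6 and 56.9 and Hoxc6 at percentile 20.7. In the edgeR test relative to all transcripts, 0 of 6 tested genes were called, against 0.846% of 14426 transcripts (0.742% higher and 0.104% lower), 0 of the genes and 2223 of the transcripts had an unadjusted p under 0.05, and limma called 0 of the genes and 739 of 10356 transcripts. The log2 changes relative to the pool were -0.24 (SE 0.39) for Hoxc4, -0.26 (SE 0.77) for Hoxd3, -0.65 (SE 0.44) for Hoxd4, -0.67 (SE 1.32) for Hoxc5 and -1.34 (SE 1.02) for Hoxc6, beside a median of -0.64 over all transcripts tested. That of Hoxc8 was -6.73 (SE 3.31, edgeR adjusted p = 0.38), a fitted value that depends on its 0 conversions at 9 h and on 1 library at 0 h, replicate 9, with 118 of the 121 conversions there. It ran from -7.31 to -3.18 without single libraries and was -0.0011 from reads with a conversion, so the label left on Hoxc8 could not be settled.

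**Figure D5:**
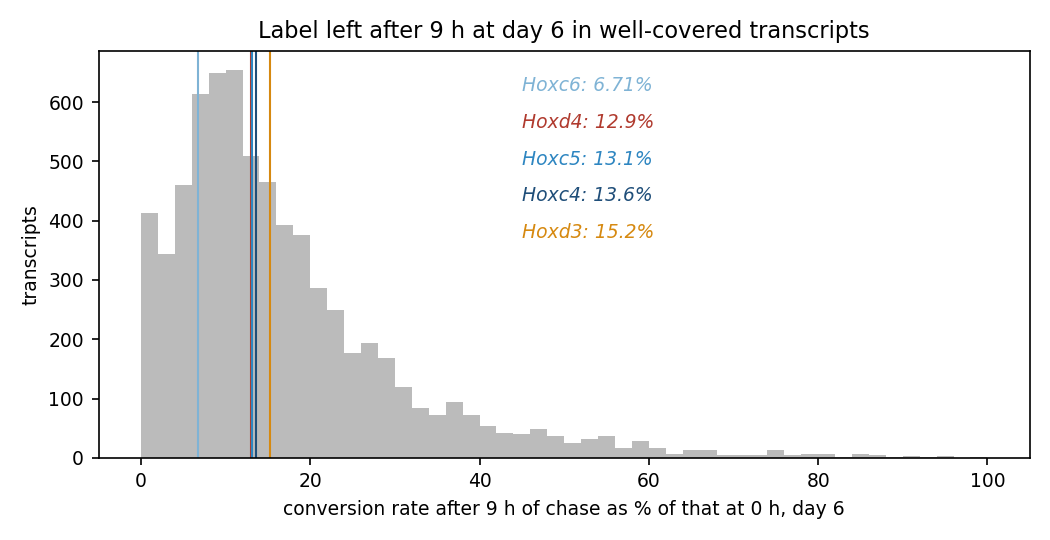
Conversion rate after 9 h of chase as a percentage of the rate at 0 h at day 6, for transcripts covered at 10000 or more T positions (grey bars, values above 100% not drawn), with a vertical line for each of 5 genes. Hoxc4, Hoxc5, Hoxd3 and Hoxd4 stood at 12.9 to 15.2%, near the median of 13.3%, and Hoxc6 at 6.71%.

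Between the time points the libraries differed widely. At catabolic 3 h Hoxc4 carried 4.88, 3.33 and 4.17%, close to its 0 h values, while Hoxd3 carried 5.88, 0 and 0%, the last 2 on 2952 and 2750 covered T positions. At catabolic 6 h Hoxc4 carried 0.034% in replicate 14 and 2.96% in replicate 15, and Hoxd4 0.023% and 2.83%. Hoxd3 went the other way, with 1.87% in replicate 14 and 0.044% in replicate 15. For each of these genes 1 of the 2 libraries was nearly without label, and for Hoxd3 it was the other library.

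Exponential fits to the catabolic libraries at D6 met the criteria (R squared over 0.6, up to 5000 min) for 1 of 6 covered genes, Hoxc6, with a decay half-life of 239 min (SE 66.7, R squared 0.61, 11 libraries), and for 16.9% of 14426 transcripts, with a median of 221 min. Hoxc4 at 332 min (SE 104) and Hoxd4 at 299 min (SE 99.5) had an R squared of 0.60 and 0.59, just under the minimum. From the 0 and 9 h libraries alone, whose hours the labels and the study description share, 5 genes met the criteria, as did 51.4% of transcripts. These half-lives were 204 min (SE 48.9) for Hoxc4, 201 min (SE 27.2) for Hoxd3, 175 min (SE 51.98) for Hoxd4, 171 min (SE 32.8) for Hoxc5 and 143 min (SE 47.9) for Hoxc6, and the ranges of 1 SE around them all overlapped, beside a median of 169 min over the transcripts that met the criteria. With the hours of the sample labels, Hoxc4 (198 min), Hoxc5 (245 min) and Hoxd4 (170 min) met them and Hoxc6 did not. The share of all transcripts that met them with those hours is not given here, so this count cannot be set against it. Without catabolic 6 h replicate 14, Hoxc4 at 400.3 min and Hoxd4 at 354 min met them as well, and Hoxc6 stood at 207 min. With single libraries left out in turn, Hoxc6 met the criteria in only 5 of 11 fits, from 207 to 289 min, as did Hoxc4 in 5 and Hoxd4 in 3, so that for none of these genes did the outcome hold against the loss of 1 library.

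In the anabolic fits at D6, Hoxc4 alone of the 6 genes met the criteria, with a half-life of 342 min (SE 66.4, R squared 0.74). Without single libraries it ran from 317 to 389 min. It depended on the hours used, with 205 min (SE 28.8, R squared 0.91) from the hours of the sample labels. From the 0 and 9 h libraries alone it was 194 min (SE 41.1, R squared 0.95). The share of all transcripts that met the criteria in the anabolic fits is not given here for either state. At D0 none of the genes met the criteria in either assay, while 15.6% of 14426 transcripts did in the decay fits. From the 0 and 9 h libraries alone none of the genes did either, and 35.5% of transcripts did. The 12 catabolic D0 libraries held 272 to 651 covered T positions of Hoxc4 per time point. For the difference in decay slope between the states, edgeR called 0 of the 6 genes fitted and 0.0139% of 14426 transcripts, and DESeq2 called 0 of the genes. An unadjusted p under 0.05 was found for 2 of the genes, Hoxc8 and Hoxd4, and for 882 of the transcripts. The genes entered this fit through their coverage at D6, and with the D0 rates not read as label their differences are not read either. Hoxc8 at D0 had 0 covered T positions at 0 h, 59 at 3 h, 0 at 6 h and 4 at 9 h. At D0 Hoxd4 had 4 conversions on 123 covered T positions at 0 h and 10 on 371 at 9 h, so that at this depth no loss of its label could be read at D0.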

How the data were processed

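P19 cells were measured by SLAM-seq in 47 libraries. The authors mapped the reads with SLAMdunk 0.3.3 to mm10 (the version is per the file headers) and deposited, per library and 3′ UTR, read counts, counts of T>C conversions and of the T positions covered, the conversion rate as a fraction, and CPM scaled to mapped reads. Single nucleotide variants were called and masked and no multimapped reads were counted. The rows carry RefSeq names, while the methods name GENCODE. From the deposited counts, CPM was recomputed over 28190 mRNA transcripts, with a UTR shared by several transcripts counted for each. The deposited CPM and fractions served only as checks.

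The 10 genes and the gene lists were chosen with earlier results of these data known. Every listed member is reported, and up to 4 genes per other list are named, those with the largest changes. Tests were edgeR 4.0.16 quasi-likelihood tests over all transcripts (TMM, low counts filtered with filterByExpr, Benjamini-Hochberg, threshold 0.05). Conversions were tested with covered T positions, and where stated the pool's rate, as offset, over transcripts with a mean of 1000 or more covered T positions. DESeq2 1.42.0 and limma 3.58.1 (log2 rates, pseudocount 0.0005) served as alternatives, in R 4.3.3. Half-lives were fitted with scipy 1.17.1 by least squares. Exact intervals are at 95%. When single libraries were left out of the fit over all time points and of the decay slopes, the dispersions of the complete fit were kept.

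The tests were checked on simulated data, in which those of label and of decay slope missed most of the changes put in, as the test of reads did for the smaller changes, so a gene without a call is not shown to be unchanged. No pair of libraries held identical counts. UTR sequences came from GENCODE transcripts and miRNAs from RefSeq (GRCm38.p6). Protein sequences and the Hoxc8 UTR were not used here. Results on the list of Hox partner genes are not reported here.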

Additional observations from a re-analysis of the deposited data

Results flagged for a closer look

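Reads were also found on non-coding transcripts of the Hoxd cluster, which no comparison above uses. Hoxd3os1 had 0, 72 and 111 reads in the 3 D6 libraries without 4sU, a mean of 10.1 CPM, against at most 1 read in the D0 libraries. The mean of Haglr in the same D6 libraries, 7.79 CPM, came from 1 library with 122 reads, the other 2 having 0, while the D0 libraries had up to 35 reads. Over all libraries Hoxd3os1 had 5.99 ± 8.17 CPM at D6 (SD, n = 23), with reads in 12 of 23, and 0.13 ± 0.48 at D0 (n = 24), with reads in 4. Haglr had 4.64 ± 7.68 CPM at D6, with reads in 12 of 23 libraries, and 0.98 ± 1.28 at D0, with reads in 13 of 24, so that the libraries of the states overlapped for both. No test was run on them.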

How the results depend on the processing

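Reads of Hoxc4, Hoxd3 and Hoxd4 kept their direction and call under every alternative run for the 2 comparisons of the states. Without 4sU, 2115 transcripts were called, and 3234 with DESeq2, 1242 with 1 transcript per cluster of overlapping UTRs, 3938 and 3633 with the catabolic 6 h and 9 h libraries instead, and 1253 to 2307 without single libraries. Over all time points the count was 9338, and 9017 to 9740 without single libraries. For 15 h of 4sU against none it was 8, and 264 with DESeq2, 82 with no filter, 1 with 1 transcript per cluster, and 0 to 3 without single libraries. For label left after 9 h it was 122, and 192 at a minimum of 5000 covered T positions, 739 with limma, and 67 to 184 without single libraries. For label after 9 h over 15 h it was 0, and 12 with limma. For label after 15 h between the states it was 0, and 119 with limma and 0 to 2 without single libraries. For the decay slope it was 2, and 108 with the hours of the labels, 34 from 0 and 9 h only, 140 with DESeq2, and 0 to 4 without single libraries. The cause of these differences was not tested.

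Decay half-lives at D6 met the criteria for 1 gene, and for 3 with the hours of the labels, 5 from 0 and 9 h only, 5 with no minimum of R squared, and 0 to 3 without single libraries. Shares of all transcripts are given above only for the decay fits with the hours of the study description and from 0 and 9 h only. At D0 the 0 genes became 1 for decay and 3 for synthesis with no minimum of R squared, and the 1 gene with a synthesis half-life at D6 became 6, or 1 to 2 without single libraries.

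Changes that reversed were not past the threshold in either fit. For 15 h of 4sU against none, leaving out single libraries moved Hoxc9 from -0.74 to 0.25, Hoxd3 from -0.068 to 0.71, Hoxd4 from -0.011 to 0.24 and Hoxd8 from -0.46 to 0.44. Over all time points it moved Hoxd1, which could not be estimated, from -0.60 to 0.66. For label left after 9 h it moved Hoxc4 from -0.78 to 0.066, and Hoxd3 gave 0.065 with reads carrying a conversion counted. For label after 9 h over 15 h it moved Hoxc5 from -0.24 to 0.84, Hoxc6 from -1.94 to 0.031 and Hoxc8 from -2.40 to 3.49, and Hoxc8 gave -0.29 with reads carrying a conversion. For label after 15 h between the states it moved Hoxc5 from -0.98 to 10.62, and the same gene gave 0.25 with reads carrying a conversion. Depth limits the comparisons of label between the states, since D0 libraries cover few T positions of these genes. No paired analysis was possible because every library has a number of its own, which no 2 groups share.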

Other observations

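At D0 the few reads of several genes lay in single libraries. Of 85 reads of Hoxc6 at D0, 54 were in 1 library (anabolic 6 h replicate 63), of 46 reads of Hoxc5 17 were in 1 (catabolic 6 h replicate 31), of 27 reads of Hoxd9 19 were in 1 (catabolic 3 h replicate 29), and all 12 reads of Hoxd1 were in 1 (anabolic 0 h replicate 57). Hoxc4 differed from these, with reads in all 24 D0 libraries and at most 59 of its 326 in 1. At D6 Hotair, the antisense RNA of the Hoxc cluster, had reads in 2 of 23 libraries, with up to 62 reads, and at D0 in 1 of 24, with 1 read. The reads carry no molecular identifiers, so copies of 1 molecule cannot be told from several molecules.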
